A study of Mus musculus with 8 samples.

Results

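The 9 genes described here encode enzymes that write, maintain and remove 5-methylcytosine in DNA, or their partners (DNMT3L and UHRF1). The members are Dnmt1, Dnmt3a, Dnmt3b, Dnmt3l, Uhrf1, Tet1, Tet2, Tet3 and Tdg. They were chosen by name, and all 9 had an entry among the 17597 genes of the deposited table, which also lists 1097 transposable element subfamilies. The libraries held total RNA of female (XX) mouse embryonic stem (mES) cells of a Cast x 129S strain background. Both groups carried METTL3, the enzyme that deposits N6-methyladenosine (m6A) on RNA, fused to FKBP12F36V, a degron tag through which dTAG-13, a small molecule, triggers breakdown of the protein. A total of 4 libraries came from cells given dTAG-13 for 26 h and 4 from cells without it, and each group held 2 libraries from each of the clones C3 and H5, so that the line was represented by 2 clones. In all 8 the endogenous Xist promoter had been replaced with a TetOn promoter, on the 129S allele according to the labels and on the Mus castaneus X chromosome according to the description of the line in the study, and no doxycycline was given (NoDox). The cells grew on mitomycin-inactivated mouse fibroblast feeders in serum with LIF. The extraction text of the labels describes chromatin RNA, whereas the molecule label and the methods of the study describe total RNA.

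The only measurement used per gene was the authors' mean of normalised counts over the libraries of both groups. It has no error, and the cells with and without dTAG-13 were not compared here. Each value below is therefore a level in METTL3-FKBP12F36V mES cells averaged over treatment and clone. Mean counts added up to 14573411 reads over all genes, and the 9 members took 2416 of every 1000000 of these reads. No depth per library could be given.

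DNA methylation in mammals is placed mainly on cytosines of CpG dinucleotides. DNMT3A and DNMT3B methylate DNA that carries no mark, with DNMT3L as a partner that lacks catalytic activity of its own. After replication, UHRF1 recognizes hemimethylated CpG sites and brings in DNMT1, which copies the mark to the new strand. Removal can proceed through TET1, TET2 and TET3, which oxidize 5-methylcytosine, followed by excision of the oxidized bases by TDG and base excision repair. mES cells in serum are known for simultaneous expression of the writing and oxidizing enzymes. DNA methylation was not measured in these libraries.

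Sequences of 2 kinds are shown because one holds the substrate of these enzymes, the CpG dinucleotide, at the start of their own genes, and the other holds the letters that METTL3 prefers. The windows at the annotated starts of Dnmt3l (window nearest the 5′ end of the gene, chr10:78042037-78042336, plus strand) and Tet2 (chr3:133544341-133544640, minus strand) were picked to contrast the member whose windows were all poor in CpG with the member that had the richest window. Sequences are from RefSeq on GRCm38.p6, 5′ to 3′, and capitals mark each CpG.
Dnmt3l: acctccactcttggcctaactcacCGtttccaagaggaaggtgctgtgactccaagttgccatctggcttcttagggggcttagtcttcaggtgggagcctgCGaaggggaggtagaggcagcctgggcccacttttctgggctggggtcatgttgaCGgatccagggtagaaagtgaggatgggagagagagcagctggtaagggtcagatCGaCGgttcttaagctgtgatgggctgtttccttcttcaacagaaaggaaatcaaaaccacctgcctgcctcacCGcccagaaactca
Tet2: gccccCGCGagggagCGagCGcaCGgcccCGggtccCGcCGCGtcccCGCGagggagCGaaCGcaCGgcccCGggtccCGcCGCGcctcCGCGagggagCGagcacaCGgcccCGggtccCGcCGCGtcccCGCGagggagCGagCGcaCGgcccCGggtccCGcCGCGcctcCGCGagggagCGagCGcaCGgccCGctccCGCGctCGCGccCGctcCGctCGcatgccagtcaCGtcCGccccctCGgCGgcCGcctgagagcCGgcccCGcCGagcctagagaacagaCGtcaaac
The Dnmt3l window held 6 CpG and the Tet2 window 57.

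The other set shows GGACT, a frequent form of the m6A consensus, where it lay closest to the end of the coding sequence. Capitals mark GGACT within 25 bases of the longest protein-coding transcript in GENCODE M21, written as DNA. These 3 members had the match nearest to that point.
Dnmt1: ctgctaccaaGGACTagtgctctca
Dnmt3b: gttctacccaGGACTggggagctct
Uhrf1: acgtctgtaaGGACTgtctggacag
In Dnmt1 the match lay across the end of the coding sequence, so that its last base opens the stop codon. In Dnmt3b it began 13 bases after the last coding base, and in Uhrf1 it began 144 bases before it. m6A was not measured in these libraries, and a match to these letters is not a methylated site.

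Levels were compared between genes per length, as reads per kb of merged exons per 1000000 gene reads, and this quantity is the level given throughout. Of the 9 members, 4 lay in the highest 10% of 13447 genes that averaged 10 or more reads, 5 in the highest 25% and 8 in the upper 50%. The order from high to low was Dnmt3l, Uhrf1, Dnmt3b, Dnmt1, Tet1, Dnmt3a, Tet2, Tdg and Tet3. The median gene had a level of 5.58, and the 90th percentile was 44.1. With no spread to set against these levels, neighbors in the order could not be tested, and the order is given with the lengths under which it held. The 3 other lengths were the longest transcript, the merged exons of protein-coding transcripts and the median transcript length. Dnmt3b and Dnmt1 changed places with the longest transcript (74.5 and 74.7), and Dnmt3a and Tet2 with the exons of protein-coding transcripts (13.9 and 16.2). With the median transcript length the order became Tet1, Dnmt3l, Dnmt3a, Uhrf1, Dnmt1, Dnmt3b and Tet2. The highest 10% of genes by that length held Tet1, Dnmt3l and Dnmt3a, so that of the 4 members there by merged exons only Dnmt3l remained, and Uhrf1, Dnmt1 and Dnmt3b were at percentiles 86.3, 81.1 and 80.1. Tdg and Tet3 stayed at ranks 8 and 9 with every length.

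**Figure D1:**
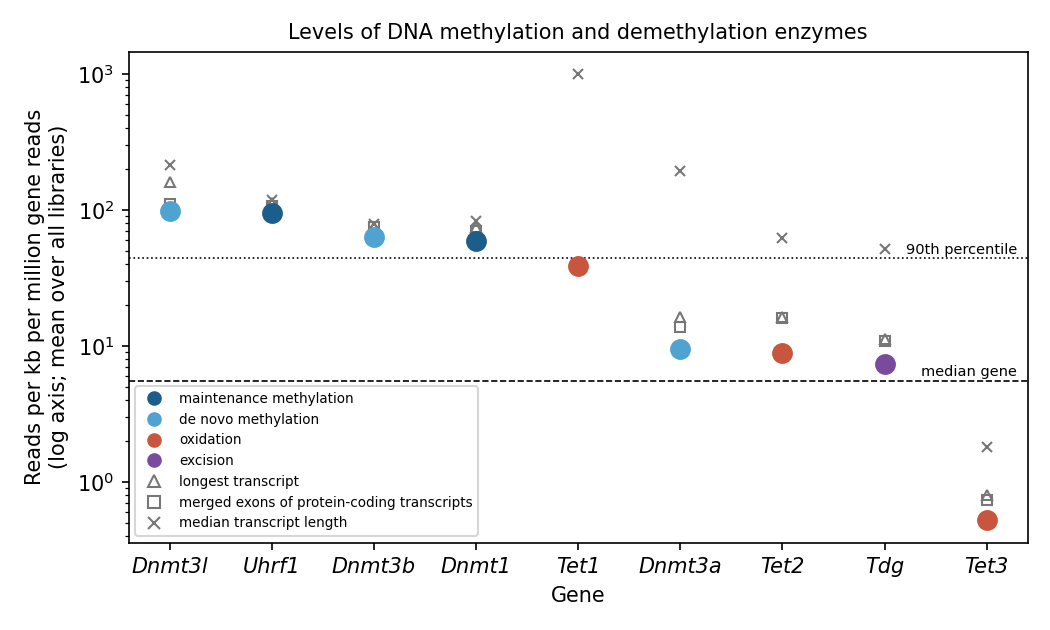
Level of each member on a log axis, in reads per kb per 1000000 gene reads, as 1 mean over the libraries of both groups. Filled circles use merged exons and are colored by role, gray symbols use 3 other lengths, and dashed and dotted lines mark the median gene (5.58) and the 90th percentile (44.1). Both lines are for merged exons and apply to the filled circles alone, of which Dnmt3l, Uhrf1, Dnmt3b and Dnmt1 lie above the dotted line and Tet3 below the dashed line.

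The maintenance pair was abundant. Uhrf1, the hemimethylated DNA reader (ENSMUSG00000001228.14, chromosome 17, 56303321 to 56323486, GRCm38), averaged 5850.1 reads and reached a level of 94.3, at percentile 96.0 of genes. Dnmt1, the maintenance methyltransferase (ENSMUSG00000004099.16, chromosome 9, 20907209 to 20959888), averaged 6392 reads and reached a level of 59.5, at percentile 92.9. Per length, Uhrf1 was thus 1.59 times Dnmt1, and this ratio stayed between 1.42 and 1.59 over the 4 lengths. Uhrf2, the paralog of Uhrf1, had a level of 8.46, and Uhrf1 exceeded it 11.1 times. That ratio was 2.27 at its lowest, with the median transcript length. Trdmt1, the DNMT2 relative that methylates tRNA, had a level of 2.78 at percentile 35.8, below Dnmt1 by 21.4 times, or by 6.88 to 26.5 times over the 4 lengths.

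Among the de novo genes, the noncatalytic partner ranked above both methyltransferases. Dnmt3l (ENSMUSG00000000730.13, chromosome 10, 78041947 to 78063622) averaged 4294 reads over 2988 bases of merged exons, and its level of 98.6, at percentile 96.2, was the highest of the 9 members. Dnmt3b (ENSMUSG00000027478.15, chromosome 2, 153649450 to 153687730) averaged 4692 reads and reached a level of 63.1, at percentile 93.4. Dnmt3a (ENSMUSG00000020661.15, chromosome 12, 3806007 to 3914443) averaged 2328 reads and reached a level of 9.60, at percentile 62.4. Of the summed level of the 3 genes, Dnmt3l made up 57.6%, Dnmt3b 36.8% and Dnmt3a 5.60%. Over the 4 lengths the share of Dnmt3a ranged from 5.60% to 39.8%.

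The place of Dnmt3a depended on its gene model. GENCODE joins 18 transcripts into 16642 bases of merged exons for this gene, and its longest transcript has 9685 bases. By the longest transcript Dnmt3a had a level of 16.5 against 74.5 for Dnmt3b, and by the merged exons of protein-coding transcripts 13.9 against 74.4. By the median transcript length, which for Dnmt3a is 820.5 bases because short annotated fragments count as transcripts, the order of the pair turned, with 195 for Dnmt3a and 78.5 for Dnmt3b. mES cells are known to use mainly a shorter Dnmt3a isoform from an internal start, and the mean count does not separate isoforms. Dnmt3l lay above Dnmt3a at all 4 lengths, by 1.11 to 10.3 times, and above Dnmt3b by 1.48 to 2.75 times.

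The 3 dioxygenase genes covered a wide range. Tet1 (ENSMUSG00000047146.17, chromosome 10, 62804570 to 62908996) averaged 8746 reads, the most of the 9 members, and reached a level of 38.8, at percentile 88.6. Tet2 (ENSMUSG00000040943.12, chromosome 3, 133463679 to 133545139) averaged 2197 reads and reached a level of 8.94, at percentile 60.9. Tet3 (ENSMUSG00000034832.15, chromosome 6, 83362373 to 83459084) averaged 128 reads and reached a level of 0.525, at percentile 11.6. Tet1 held 80.4% of the summed level of the family, Tet2 18.5% and Tet3 1.09%. Over the 4 lengths these shares ranged from 69.8% to 93.9% for Tet1, from 5.88% to 28.8% for Tet2 and from 0.170% to 1.36% for Tet3.

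The order Tet1, Tet2, Tet3 held at all 4 lengths. Tet1 exceeded Tet2 by 4.34 times with merged exons and by at least 2.42 times at each length, with the largest ratio from the median transcript length (599.5 bases for Tet1). Tet2 exceeded Tet3 by 17.0 to 34.6 times. Tet3 was the lowest of the 9 members at every length, and between percentiles 11.6 and 17.0. Its mean count of 128 was at percentile 30.8 of genes, and reads from it were thus present but few beside those of its relatives.

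Tdg, the glycosylase that excises oxidized cytosines (ENSMUSG00000034674.18, chromosome 10, 82629828 to 82650799), averaged 578 reads and reached a level of 7.38, at percentile 56.5. It ranked number 8 at all 4 lengths. Tet1, which acts before TDG in the pathway, exceeded it 5.26 times, and 3.60 to 19.5 times over the lengths. A processed pseudogene, Tdg-ps, is annotated on chromosome 15, and Dnmt3a and Dnmt3l each have one as well (Dnmt3a-ps1 on chromosome 3 and Dnmt3l-ps1 on chromosome 2). Pseudogenes were sought by name alone, so copies of any member under other symbols were not looked for. Only uniquely placed reads were kept, so reads shared with near-identical copies would be lost from a member's level. How many were lost was not tested. Dnmt3a and Dnmt3b overlap annotated antisense transcripts (Dnmt3aos and Dnmt3bos), Dnmt3l overlaps Aire and Tdg overlaps Glt8d2 on the opposite strand. Annotated genes also overlap Dnmt1 (Mir7081), Tet1 (Gm26479 and Gm48353), Tet2 (Gm42567) and Tet3 (5430434F05Rik, B230319C09Rik and Mir6374), the member with the fewest reads. The library kit marks strand, but the sources used here do not settle whether the counting used it, so reads of these neighbors may be included.

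Genes that work with these enzymes were taken from lists chosen by function. Of 20 cofactors of DNA methylation, 9 were in the highest 10% of genes, 16 in the highest 25% and 19 in the upper 50%, with a median level of 34.3. The 3 most abundant were Trim28, a corepressor that maintains methylation at imprints and retroviruses (level 311), Pcna, the replication clamp (154), and Usp7, a deubiquitinase that partners with DNMT1 and UHRF1 (98.2). The lowest were Uhrf2 (8.46), Kdm1b, a histone demethylase needed for imprints in oocytes (6.20), and Arid4b (3.72). The median of the 9 members was 38.8.

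Genes of the methyl-CpG binding list were mostly scarce. The list follows protein families, and MBD3, MBD5 and MBD6 are known not to bind methylated CpG selectively. Of its 10 genes, 3 were in the upper 50% of genes and 1 in the highest 25%, and the median level was 2.58. That gene was Mbd3, a subunit of the NuRD complex (level 54.9), followed by Zbtb33, which encodes Kaiso (6.97), and Mbd4, a glycosylase for deaminated CpG sites (6.96). The lowest were Mbd6 (0.692), Mbd5 (0.349) and Zbtb4 (0.102).

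Base excision repair and deamination genes were spread widely. Of 20 genes, 12 were in the upper 50%, 4 in the highest 25% and 2 in the highest 10%. Those 2 were Apex1, the abasic site endonuclease that acts after TDG (level 305), and Parp1, which senses strand breaks (130). Gadd45a, a stress-induced gene linked to demethylation, followed at 25.4. Near the lower end were Neil3 and Neil2, glycosylases of oxidized bases, with levels of 1.28 and 0.640. Tdg was 1 of several glycosylases, and its level was below that of Ung, the uracil glycosylase (19.4), and above that of Smug1 (3.24). Ung and Smug1 were added after their values were seen.

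TET partners and the genes that supply cofactors included some of the most abundant transcripts. Of 15 genes, 5 were in the highest 10% and 11 in the upper 50%. Ahcy, which clears the product of methyl transfer (level 152), Mat2a, which makes S-adenosylmethionine (114), and Idh2, which makes the TET cosubstrate 2-oxoglutarate in mitochondria (74.9), led the list. D2hgdh had a level of 1.04, while Mat1a, the liver counterpart of Mat2a, and Cxxc4 had levels of 0.0317 and 0.0301 and averaged fewer than 10 reads each. Mettl3 itself had a level of 9.25, at percentile 61.6. The degron acts on the protein, so its RNA is no check of the depletion.

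**Figure D2:**
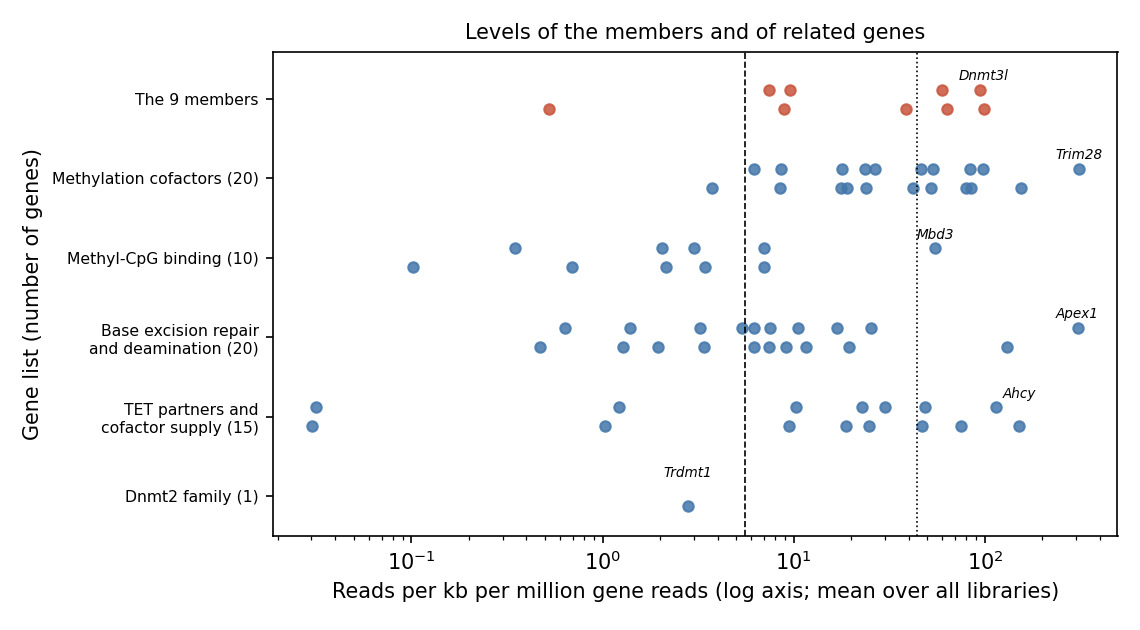
Levels of the 9 members and of 5 lists of related genes on a log axis, in reads per kb of merged exons per 1000000 gene reads, each point a gene and the vertical offset only for legibility. Dashed and dotted lines mark the median gene (5.58) and the 90th percentile (44.1), and the highest gene of each list is named. The members ran from Tet3 (0.525) to Dnmt3l (98.6).

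The cell type label was compared with marker genes. All 12 pluripotency markers were in the upper 50% of genes and 9 in the highest 10%, with Dppa5a (level 1108), Pou5f1 (364) and Zfp42 (332) at the top. Of 5 primed pluripotency markers, 2 were in the upper 50%, namely Otx2 (level 20.0, percentile 78.2) and Fgf5 (6.29, percentile 52.8). Of 12 fibroblast markers, 4 were in the upper 50%, namely Sparc (level 55.3, in the highest 10%), Vim (30.0), Fn1 (29.0) and Tagln (11.9), while the collagen genes Col1a1, Col1a2 and Col3a1 had levels of 0.207, 0.0763 and 0.0586. The list thus held both abundant and scarce genes, with a median level of 1.43, and how much of the members' RNA came from feeders was not tested. None of 6 primitive endoderm markers and 1 of 5 trophoblast markers (Tfap2c, level 17.2) reached the upper 50%, and 3 of 4 germ line markers did, with levels from 5.42 to 9.81 for that list. In bulk RNA, fewer cells of a type and less RNA per cell cannot be told apart.

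The annotated starts of the members differed in CpG content. RefSeq gave 16 windows for the 9 members, each of 250 bases before and 50 bases after a start, and the 12994 such windows of 10159 genes averaging 10 or more reads had a median of 20 CpG. Both strands read the same for CG, and 99.3% of these windows held at least 1. The 3 windows of Dnmt3l held 6, 4 and 3 CpG, fewer than most: 14.8%, 9.26% and 6.80% of windows had as few. Tet2 was at the other end with 57, as many as only 0.262% of windows had, as in the sequence printed above.

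Genes with several starts held windows of unlike content. Dnmt1 had windows of 2, 12 and 33 CpG, in order from the 5′ end of the gene. Dnmt3a had 46 and 47 CpG in the pair of overlapping windows at its 5′ end, and 18 at its internal start (chr12:3891494-3891793). Uhrf1 had 12 and 33. Among members with 1 window, Dnmt3b had 30, Tdg 26, Tet3 22 and Tet1 17 CpG. The windows of Tet1 (chr10:62887275-62887574) and Tet3 (chr6:83441629-83441928) lay inside these genes, which are on the minus strand. Their annotated 5′ ends, at 62908996 and 83459084, had no window, so CpG there were not counted. Dnmt3l, with the highest level by merged exons, was the only member with no window above 6 CpG. Tet3, with the lowest level, had its internal window near the median of all windows. Whether level goes with CpG content was not tested. Which start was used in these cells was not measured.

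**Figure D3:**
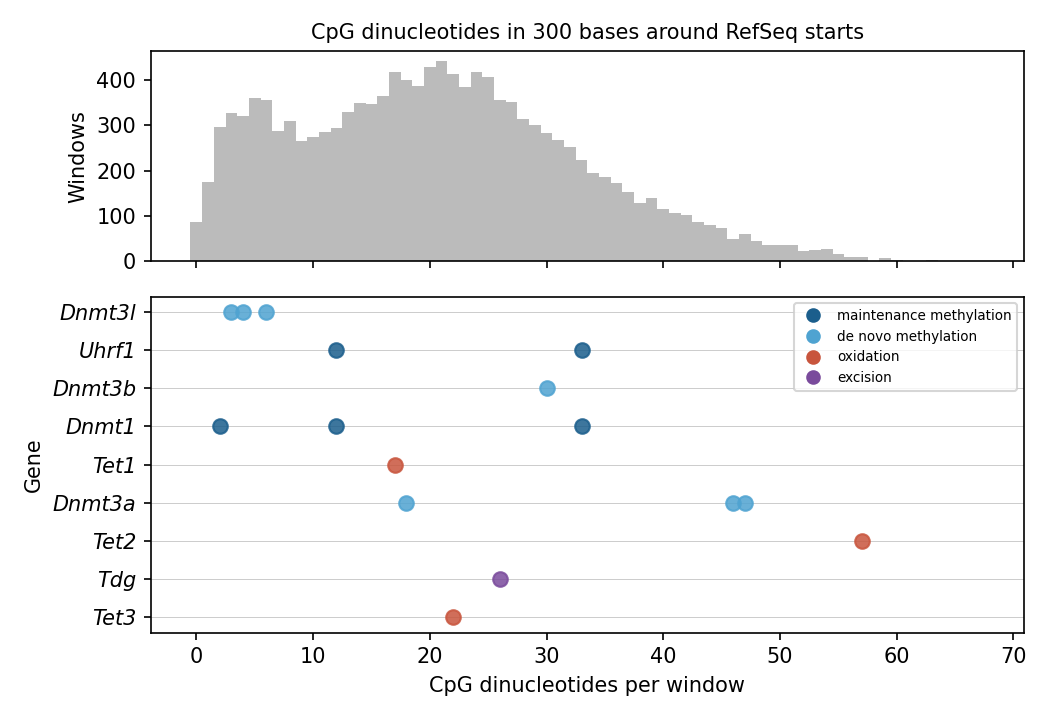
CpG dinucleotides per 300-base window around RefSeq starts. The upper panel is a histogram over 12994 windows of genes averaging 10 or more reads, and each point below is a window of a member, colored by role, from 2 in Dnmt1 to 57 in Tet2. All 3 Dnmt3l points lie at 6 or fewer.

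The transcripts differed in features that m6A is known to follow, among them long exons and the GGACT letters. The longest protein-coding transcripts of Tet1, Tet2 and Tet3 had internal exons of 2203, 3206 and 2158 bases, at percentiles 98.4, 99.2 and 98.3 of 12058 genes, whose median was 218 bases. In the other 6 members the longest internal exon had 188 bases (Dnmt3l) to 283 bases (Dnmt1), at percentiles 35.2 to 68.2. Among the 9 members, the 3 dioxygenase genes thus had the longest internal exons. Last exons were not compared. The stretch after the coding sequence had 6699 bases in Dnmt3a, against 7958 in Tet1, 3061 in Tet2 and 5672 in Tet3.

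GGACT was counted on the transcribed strand of the longest protein-coding transcript of each gene. Which isoform these cells used was not measured, and other isoforms may hold other counts. At least 1 match was present in 92.7% of 13022 genes, with a median of 1.05 per kb. Tdg (6 matches, 1.71 per kb), Dnmt3a (15 matches, 1.55 per kb) and Uhrf1 (5 matches, 1.39 per kb) were above that median. Tet2 (0.980 per kb), Dnmt3b (0.926), Tet3 (0.917) and Tet1 (0.905) were somewhat below it. Dnmt3l had a single match in 1822 bases (0.549 per kb) and Dnmt1 had 3 in 5870 bases (0.511 per kb), the lowest densities of the 9. Of the 15 matches in Dnmt3a 12 lay after the coding sequence, as did 10 of 13 in Tet1, whereas in Dnmt1 none did.

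**Figure D4:**
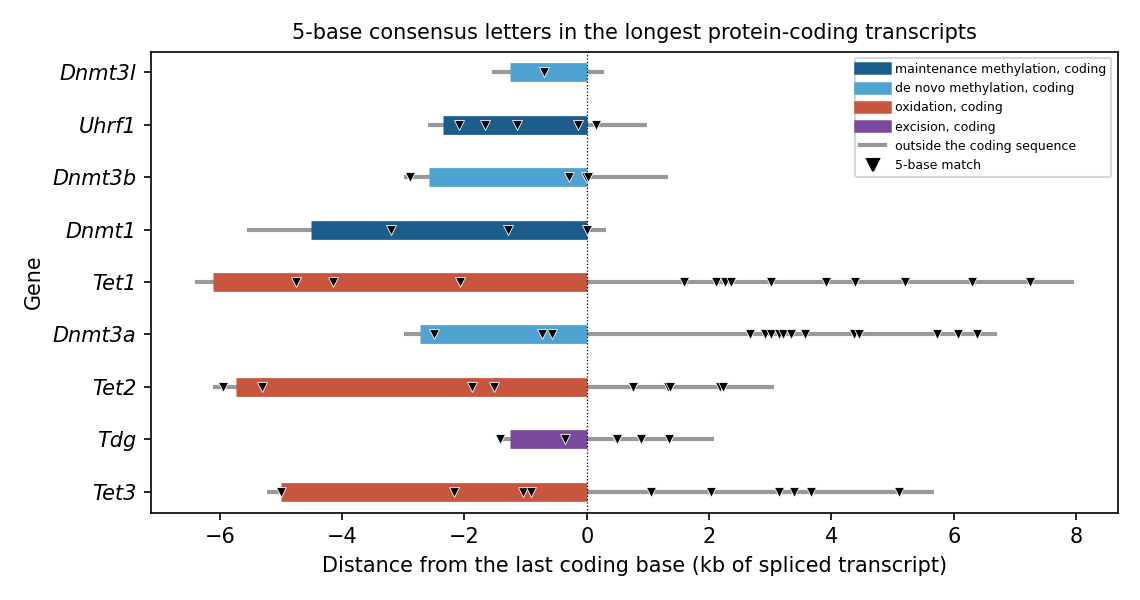
Longest protein-coding transcript of each member, aligned at the last coding base, with distance in kb of spliced transcript on the x axis. Thick bars are the coding sequence colored by role, thin gray lines the rest, and triangles the 5-base matches, from 1 in Dnmt3l to 15 in Dnmt3a.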

How the data were processed

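Total RNA from 8 libraries of METTL3-FKBP12F36V mES cells was analyzed from 1 deposited table. The authors removed ribosomal reads with bowtie2, aligned the rest with STAR to mm10 with strain variants masked, kept unique alignments, removed duplicates with Picard and ran TEtranscripts with default parameters. The signal column used was deposited as the mean over libraries of counts divided by size factors. The 5 other columns hold the log2 fold change, standard error, statistic, p and adjusted p of the authors' own comparison and were not used. No library has a column, so the planned test of dTAG-13 against untreated cells could not be run. Strand use in counting is not settled by the sources used here.

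Of 17597 gene symbols, 17352 (98.6%) were given a length from 1 GENCODE M21 record on GRCm38, the build of mm10. Symbols were matched directly or, for 721, through an older symbol, and 29 that shared a record were left out. Levels are mean counts per kb of merged exons per 1000000 gene reads, in Python 3.11.15, tested on simulated lengths. Percentiles refer to genes whose mean count was 10 or more. Alternatives were 3 other lengths, other minimums of the mean count, and scaling with transposable elements included. The named genes are the members, Mettl3 and the 3 most and 3 least abundant of each list, with exceptions said in the text and some results of this rule not reported here. Marker genes were also listed by cell type. Members and lists were chosen with earlier results of these data known, and the sequence features after the levels were seen. The 300-base windows are from RefSeq.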

Additional observations from a re-analysis of the deposited data

How the results depend on the processing

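No paired analysis was possible because the deposited table gives 1 mean over all libraries, and for the same reason no library could be left out and no normalization or tool exchanged, and the comparison of dTAG-13 against untreated cells was not run under any setting. The counts of members in the highest 10% (3 to 5) and 25% (5 to 7) of genes by level stayed within 1.5 times of the reported 4 and 5 under all 6 alternatives, but the members counted changed: with the median transcript length Uhrf1, Dnmt1 and Dnmt3b left the highest 10%, and Tet1 and Dnmt3a entered it. The count in the upper 50% was 8, and it was 5 when the genes compared had a mean count of at least 100, since fewer genes of low level remain in that background. It was 8 under the other 5. The levels of single members moved most with the median transcript length, to 1001 for Tet1, because GENCODE lists short fragments as transcripts. The rank of 7 members differed between lengths, while Tdg and Tet3 kept theirs. Depth per library is unknown, so no interval or error is given for any level.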
